A study of Mus musculus with 6 samples.

Results

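The 10 genes described here encode transcription factors that direct naive T cells toward effector, memory, helper or regulatory fates. They were Tbx21, Eomes, Prdm1, Id2, Id3, Zeb2, Batf, Bcl6, Gata3 and Runx3. The choice used textbook knowledge of T cell differentiation, with earlier results of these data known. Gene names were matched in the deposited count table. All 10 were found among its 54532 genes, all 10 are protein coding, and all 10 were among the 14883 genes with enough reads to test. The series holds 3 control libraries and 3 DB2313 libraries of mouse primary T cells. Control T cells were incubated with partner cells that had not been given DB2313, and DB2313 T cells with partner cells exposed to DB2313, an inhibitor of the myeloid transcription factor Spi1 (also named PU.1). The sample labels call the partner cells DC cells, whereas the study's methods describe thioglycolate-elicited peritoneal macrophages and spleen CD8T cells stimulated through CD3 and CD28. By those methods, the macrophages of both groups were also activated with interferon-γ before they joined the T cells. Neither source gives the strain, sex or age of the mice, the number of mice behind a library, or how the T cells were parted from their partners before lysis, and the p-values therefore measure only the spread between these libraries. The comparison asks how T cell regulators differ after coculture with partner cells in which Spi1 was inhibited.

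Effector T cells arise when antigen and cytokine signals switch on factors such as Tbx21, Batf and Prdm1. These promote effector programmes of cytotoxic granules, cytokines and tissue migration. Opposing factors, including Bcl6 and Id3, keep some cells in a long-lived memory or follicular state. Several of these genes are not restricted to T cells: Zeb2, Id2, Prdm1 and Bcl6 are also transcribed in macrophages and dendritic cells, where Zeb2 and Id2 help to set cell identity.

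The libraries held between 16611975 and 18596217 counts. All 18 T cell markers were detected, and their summed share of counts was 0.296% to 0.299% in the controls and 0.479% to 0.481% in the DB2313 libraries. The 15 macrophage markers made up 1.08% to 1.1% of control counts and 0.368% to 0.377% of DB2313 counts, and all 15 were lower. Cd4 reached 213 ± 2.51 CPM (counts of a gene scaled by its library size adjusted by the trimmed mean of M values, TMM, SD, n = 3) and Foxp3, the factor of regulatory T cells, 113 ± 1.84 CPM in the controls beside 119 ± 3.91 CPM of Cd8a, so the libraries held RNA typical of CD4 T cells as well as of CD8T cells. In bulk RNA, fewer cells of a type and less RNA per cell cannot be told apart.

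Of the 10 factors, 4 were lower and 2 were higher in the DB2313 libraries, while 4 did not pass the test. The genes that fell were Zeb2, Id2, Prdm1 and Bcl6, which are active in terminal effector or follicular programmes, and those that rose were Eomes and Gata3. These calls used edgeR's quasi-likelihood test on TMM-scaled counts, with p-values adjusted by the Benjamini-Hochberg method over all tested genes and a threshold of 0.05. Over all tested genes, 24.6% were called lower and 20.8% higher, so 2 of 10 was near the share of all genes and 4 of 10 somewhat above it. For 6 of the 10 factors the values of one group all lay outside the range of the other, against 53.1% of all tested genes. An absolute log2 fold change over 1 together with the test was reached by 1 factor, Zeb2, against 6.67% of all tested genes. The median log2 fold change of the 10 factors was -0.02, beside 0.02 for all tested genes and 0.04 for the 883 tested genes that the table annotates as transcription factors. Their values ran from -1.02 for Zeb2 to 0.64 for Eomes.

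**Figure D1:**
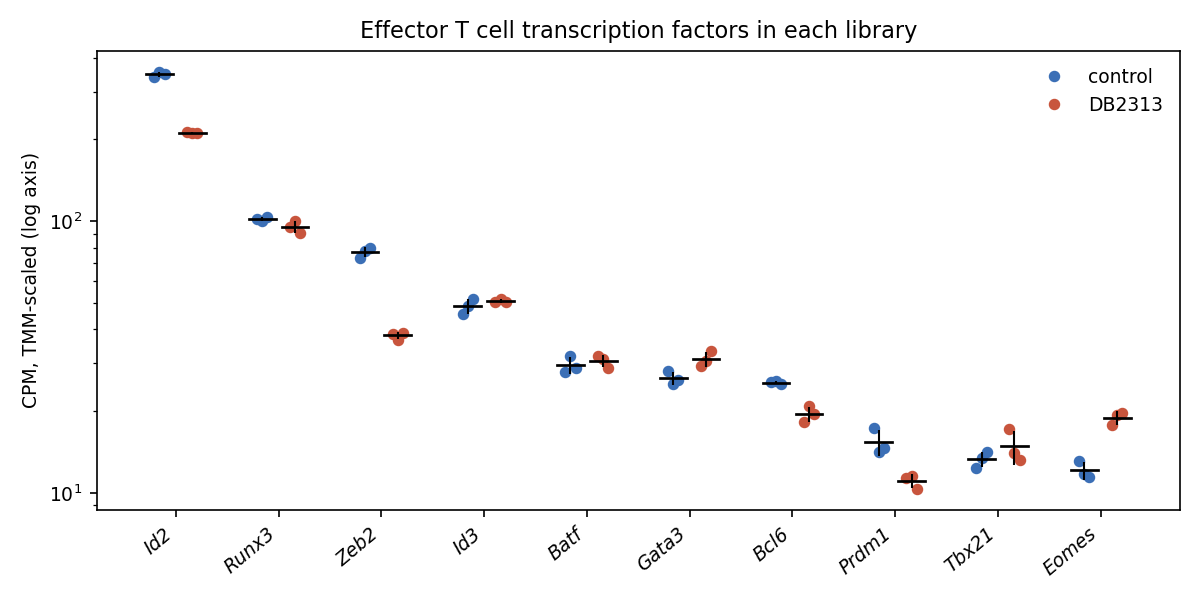
CPM of each factor after TMM scaling (log axis) in the 3 control and 3 DB2313 libraries, where points are libraries, horizontal bars the group means and vertical bars the SD. Id2, Zeb2, Bcl6 and Prdm1 sit lower in every DB2313 library and Eomes and Gata3 sit higher, while the groups overlap for Tbx21, Id3, Batf and Runx3.

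Per length, Id2 was far above the other factors at 142 ± 3.34 CPM per kilobase of gene length in the controls and 86.8 ± 0.29 in the DB2313 libraries (SD, n = 3). Id3 came next at 27.2 ± 1.74 CPM per kilobase in the controls, followed by Batf at 21 ± 1.53 and Runx3 at 20.3 ± 0.36, and the last 2 overlapped. Gata3 stood at 6.64 ± 0.36 and Tbx21 at 5.34 ± 0.35 CPM per kilobase. The lowest control levels per kilobase were those of Zeb2 (3.87 ± 0.17), Bcl6 (3.8 ± 0.05), Eomes (2.91 ± 0.22) and Prdm1 (2.75 ± 0.31), with Zeb2 overlapping Bcl6 and Eomes overlapping Prdm1. These ranks depend on the deposited gene length (19942 bases for Zeb2, 2438 for Id2), which is not the span of the locus. In the DB2313 libraries the first 6 places were held in the same order. Below them, Eomes stood at 4.55 ± 0.25 CPM per kilobase, above Bcl6 at 2.91 ± 0.19, and Prdm1 (1.98 ± 0.11) and Zeb2 (1.90 ± 0.06) overlapped at the bottom.

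The stretches before the transcription starts of 5 factors are shown, each free of annotated exons. These factors either changed in the comparison or, in the case of Tbx21, form a family pair with one that did. The windows of Id2 and Gata3, which also changed, overlapped annotated exons and are not shown. A further Bcl6 window free of annotated exons, at chr16:23981284-23981533 (-), is not shown either. The stretches shown are RefSeq promoter windows on the GRCm38.p6 assembly, each giving the 250 bases before an annotated start. They are read 5′ to 3′ on the gene's strand, with motif matches in capitals. The Eomes stretch lies at chr9:118477939-118478188 (+), that of Tbx21 at chr11:97115332-97115581 (-), that of Zeb2 at chr2:45117443-45117692 (-), that of Prdm1 at chr10:44458749-44458998 (-), and that of Bcl6 at chr16:23988853-23989102 (-).
Eomes: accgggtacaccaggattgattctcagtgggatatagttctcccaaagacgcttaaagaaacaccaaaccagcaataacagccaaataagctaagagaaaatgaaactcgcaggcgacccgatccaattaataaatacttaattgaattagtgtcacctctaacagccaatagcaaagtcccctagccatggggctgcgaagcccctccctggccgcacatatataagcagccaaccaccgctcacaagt
Tbx21: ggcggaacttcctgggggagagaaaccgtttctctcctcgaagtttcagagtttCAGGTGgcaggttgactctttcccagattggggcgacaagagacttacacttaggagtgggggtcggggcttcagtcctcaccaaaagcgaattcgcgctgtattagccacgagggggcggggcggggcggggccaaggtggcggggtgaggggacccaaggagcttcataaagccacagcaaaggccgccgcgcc
Zeb2: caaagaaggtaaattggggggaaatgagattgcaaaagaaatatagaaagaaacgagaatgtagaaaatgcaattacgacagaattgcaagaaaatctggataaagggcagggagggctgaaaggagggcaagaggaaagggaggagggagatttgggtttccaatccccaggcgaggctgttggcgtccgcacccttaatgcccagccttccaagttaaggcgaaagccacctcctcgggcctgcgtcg
Prdm1: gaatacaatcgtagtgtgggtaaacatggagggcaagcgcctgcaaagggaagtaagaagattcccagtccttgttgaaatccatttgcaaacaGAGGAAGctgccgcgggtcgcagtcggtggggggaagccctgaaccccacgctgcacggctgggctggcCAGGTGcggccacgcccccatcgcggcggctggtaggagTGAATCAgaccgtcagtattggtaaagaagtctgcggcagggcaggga
Bcl6: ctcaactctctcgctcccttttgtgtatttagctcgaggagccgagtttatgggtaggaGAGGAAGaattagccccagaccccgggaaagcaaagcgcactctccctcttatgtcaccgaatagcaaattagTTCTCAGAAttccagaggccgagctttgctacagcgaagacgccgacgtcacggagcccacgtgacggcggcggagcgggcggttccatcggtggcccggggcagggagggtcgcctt

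Of 8 motifs searched on both strands, chosen with the gene values already known, none matched in the Eomes and Zeb2 stretches shown. In the Tbx21 stretch the capitals mark CAGGTG, the reverse complement of the Zeb E-box CACCTG, 196 bases before the start. The Prdm1 stretch held the Spi1 motif GAGGAAG at 156 bases, the Zeb E-box on the reverse strand at 87 bases and the AP-1 motif TGANTCA at 48 bases before its start. In the Bcl6 stretch GAGGAAG stood 191 bases and the Stat motif TTCNNNGAA 118 bases before the start. The further Bcl6 window, not shown, held TTCNNNGAA at 168, 122 and 88 bases before its start and no GAGGAAG. Across the 15 windows of the 10 factors, each with 50 further bases after the start, GAGGAAG occurred in 6 windows of 4 factors, namely Bcl6, Id3, Prdm1 and 3 other starts of Zeb2, of which 2 overlap. It occurred in 13.6% of all 32851 windows. Zeb E-boxes occurred in windows of Prdm1, Runx3 and Tbx21, against 20.2% of all windows. TGANTCA was in windows of Prdm1 and Zeb2, against 7.81%, and TTCNNNGAA in 4 windows of Bcl6 and Zeb2, against 8.30%. The Zeb2 windows with TTCNNNGAA overlap and hold the same site. The T-box motif GGTGTGA, present in 3.98% of all windows, was in none of the 15. Matches for the other motifs searched were TGTGGT (Runx) in Batf and Runx3 against 16.8% of all windows, CAGCTG (E proteins) in Gata3, Id2 and Tbx21 against 16.3%, and AGATAA, searched for Gata factors, in Batf against 11.2%. A match describes letters in a window and does not show binding.

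Of the T-box factors, Eomes passed the test and Tbx21 did not, and the ratio between them overlapped between the groups. Tbx21 (ENSMUSG00000001444, chr11:97098071-97115331, minus strand, coordinates here and below on GRCm38 as deposited) encodes T-bet, which drives type 1 effector genes. Its level was 12.4, 13.4 and 14.1 CPM in the controls and 17.2, 14.0 and 13.2 CPM in the DB2313 libraries. One DB2313 library was above all others and the other two lay within the control range, so the groups overlapped. The log2 fold change was 0.16 (SE 0.11, edgeR adjusted p = 0.266).

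Eomes (ENSMUSG00000032446, chr9:118478212-118486132, plus strand), a relative of T-bet that supports memory and cytotoxic cells, rose 1.56-fold. Control libraries held 13.1, 11.7 and 11.4 CPM of Eomes and DB2313 libraries 17.7, 19.3 and 19.7 CPM. Every DB2313 library was above every control library. The means were 12.1 ± 0.92 and 18.9 ± 1.04 CPM (SD, n = 3), with a log2 fold change of 0.64 (SE 0.099, edgeR adjusted p = 1.07e-05). This was the highest log2 fold change among the 4 tested T-box genes, and it lay within the range of the 18 T cell markers, 0.32 to 0.74. The ratio of Tbx21 to Eomes counts within a library was 1.11 ± 0.15 in the controls and 0.790 ± 0.16 in the DB2313 libraries (SD, n = 3). The ratios overlapped through replicate 1 of both groups, and an exact two-sided permutation test gave p = 0.2, where 3 libraries against 3 cannot go below 0.1. Leaving out either of these libraries ends the overlap by construction, which adds nothing to the test.

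Among the inhibitors of DNA binding, Id2 fell and Id3 did not pass the test. Id2 (ENSMUSG00000020644, chr12:25093799-25097140, minus strand) binds E proteins, keeps them from DNA and favours effector cells and innate lymphoid and dendritic lineages. Its level was 339, 355 and 349 CPM in the controls against 212, 212 and 211 CPM in the DB2313 libraries. The groups stood far apart, with a spread of 8.13 CPM among controls and 0.701 CPM among DB2313 libraries (SD, n = 3). The level was 1.64-fold lower in the DB2313 libraries, with a log2 fold change of -0.71 (SE 0.034, edgeR adjusted p = 1.86e-14). Among the 44 tested bHLH genes, to which the table assigns Id2, only 4 had a lower log2 fold change.

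Id3 (ENSMUSG00000007872, chr4:136143497-136145755, plus strand), the relative of Id2 that marks naive and memory T cells, held 45.6, 48.6 and 51.8 CPM in the controls and 50.3, 51.8 and 50.4 CPM in the DB2313 libraries. The DB2313 values all lay within the control range. Its log2 fold change was 0.06 (SE 0.061, edgeR adjusted p = 0.421). Scaled by library size alone it was called higher at 0.16 (edgeR adjusted p = 0.0334). Id2 counts were 7.15 ± 0.367 times those of Id3 in the control libraries and 4.16 ± 0.067 times in the DB2313 libraries (SD, n = 3), with no overlap. The log2 ratio fell by 0.78, the exact two-sided permutation p was 0.1, the smallest this design allows, and the value adjusted over 8 gene pairs was 0.267. Among the E protein and Id relatives, 4 were tested. Of these, Tcf3 (0.26), Tcf12 (0.18) and Id1 (0.29) were higher and Tcf4 (-0.37) lower on the log2 scale, all past the edgeR threshold. Under TMM scaling 20.8% of all tested genes were called higher and 24.6% lower. All 4 relatives were called lower with libraries scaled to the T cell markers, as were 77.8% of all tested genes. Id4 was too low to test.

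Prdm1 and Bcl6, which repress each other's programmes in lymphocytes, both fell. Prdm1 (ENSMUSG00000038151, chr10:44437177-44528501, minus strand) encodes Blimp-1, a transcriptional repressor that acts in terminal effector cells and plasma cells. Its level was 17.4, 14.1 and 14.6 CPM in the controls and 11.4, 11.5 and 10.3 CPM in the DB2313 libraries, and the groups did not overlap. It was 1.39-fold lower in the DB2313 libraries (log2 fold change -0.48, SE 0.11, edgeR adjusted p = 0.00107).

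Bcl6 (ENSMUSG00000022508, chr16:23965052-23988852, minus strand), the repressor that defines follicular helper T cells, held 25.6, 25.7 and 25.1 CPM in the controls. In the DB2313 libraries it stood at 18.3, 20.8 and 19.5 CPM, each below the lowest control. The level was 1.31-fold lower (log2 fold change -0.39, SE 0.082, edgeR adjusted p = 0.000438). The ratio of Prdm1 to Bcl6 counts was 0.603 ± 0.066 and 0.569 ± 0.047 in control and DB2313 libraries (SD, n = 3), and the ranges overlapped with an exact two-sided permutation p of 0.6. The difference of the log2 ratios was -0.08, and leaving out 1 library at a time moved it between -0.15 and 0.00. The markers of plasma cells, which use Prdm1, were mixed. Sdc1 was lower (log2 fold change -1.09), Jchain was higher (0.44), Mzb1 did not pass the edgeR test (0.29) and Tnfrsf17 was too low to test.

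The change of Zeb2 was the widest of the 10 in either direction. Zeb2 (ENSMUSG00000026872, chr2:44983632-45117395, minus strand) is a zinc finger repressor that acts with T-bet in terminal effector CD8T cells and is also a main factor of macrophages. Its level was 73.4, 78.0 and 80.0 CPM in the controls and 38.4, 36.6 and 38.9 CPM in the DB2313 libraries. The lowest control library was well above the highest DB2313 library. Zeb2 was 2.03-fold lower, from 77.1 ± 3.35 to 38.0 ± 1.18 CPM (SD, n = 3), with a log2 fold change of -1.02 (SE 0.057, edgeR adjusted p = 4.25e-13). Of the 418 tested C2H2 zinc finger genes, 5 had a lower log2 fold change. Without control replicate 3 or without DB2313 replicate 2 the log2 fold change was just inside -1, and the value nearest 0 over the 6 fits that left out a library was -0.99. The 15 macrophage markers, with log2 fold changes from -2.16 to -0.52, moved in the same direction as Zeb2, Id2, Prdm1 and Bcl6, and their part in these results was not tested.

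Zeb1, the paralogue of Zeb2 that keeps memory cells, had 47.7 ± 2.28 CPM in the controls and 50.9 ± 1.62 CPM in the DB2313 libraries (SD, n = 3), and its log2 fold change of 0.09 did not pass the edgeR test (adjusted p = 0.229). Counts of Zeb2 were 1.62 ± 0.11 times those of Zeb1 in control libraries and 0.747 ± 0.046 times in DB2313 libraries, with no overlap. That log2 ratio fell by 1.11, more than those of the other 7 pairs compared, with an exact two-sided permutation p of 0.1. The Zeb2 locus also holds the antisense gene Zeb2os, which had 37 to 49 counts in the controls and 7 to 25 in the DB2313 libraries (log2 fold change -1.56, SE 0.35, edgeR adjusted p = 0.000721). Whether reads were counted by strand is not given in the sources used here, so reads from both genes may not have been told apart, although Zeb2 itself had 625 to 1340 counts. The other genes that overlap a factor on the opposite strand had at most 16 counts in a library.

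**Figure D2:**
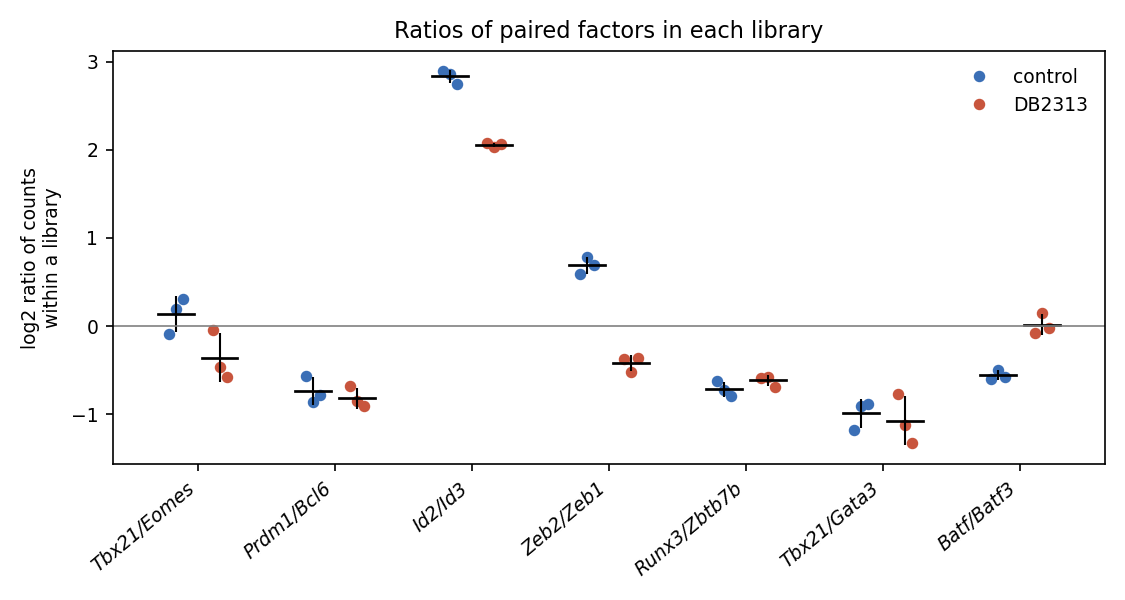
Log2 ratio of the counts of paired factors within each library, where points are libraries, horizontal bars group means and vertical bars the SD. The ratios of Id2 to Id3 and Zeb2 to Zeb1 are lower and that of Batf to Batf3 higher in all 3 DB2313 libraries, while the other ratios shown overlap. The pair of Eomes and Tcf7, between -5.61 and -5.40 in all libraries, lies off the axis and is not drawn.

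Batf (ENSMUSG00000034266, chr12:85686669-85709087, plus strand) is a basic leucine zipper factor that pairs with Jun proteins and Irf4 to open effector genes after T cell receptor signals. It held 27.8, 31.9 and 28.8 CPM in the controls and 31.8, 31.0 and 28.9 CPM in the DB2313 libraries. The groups covered nearly the same range, and the log2 fold change was 0.05 (SE 0.075, edgeR adjusted p = 0.595). Of its 11 relatives and partners, 6 were lower and 2 higher (median log2 fold change -0.52), against 24.6% lower and 20.8% higher over all tested genes. Irf4, which binds DNA with Batf, went from 117 ± 1.75 to 52.1 ± 2.49 CPM (log2 fold change -1.17, SE 0.047, edgeR adjusted p = 1.19e-15). Irf8, a partner of Batf3 in dendritic cells and a main factor of myeloid cells, went from 333 ± 4.81 to 158 ± 3.0 CPM (-1.08). Batf2 fell by 1.17, Fosl2 by 0.84 and Fos by 0.59 on the log2 scale, and all passed the edgeR threshold.

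Batf3, the relative of Batf needed by cross-presenting dendritic cells, fell from 43.3 ± 1.46 to 30.3 ± 2.91 CPM (SD, n = 3). The ratio of Batf to Batf3 counts therefore went from 0.680 ± 0.026 to 1.02 ± 0.085 without overlap, a log2 difference of 0.57 with an exact two-sided permutation p of 0.1. Jund (0.30) and Bach2 (0.28) were the Batf partners called higher, and both are named after their values were seen. With libraries scaled to the T cell markers, 10 of the 11 partners were called lower and none higher. On that scale 77.8% of all tested genes were called lower.

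Gata3 (ENSMUSG00000015619, chr2:9857078-9890034, minus strand), the factor of type 2 helper T cells that CD8T cells also need, was slightly higher. Its level was 28.0, 25.2 and 26.0 CPM in the controls and 29.4, 30.6 and 33.2 CPM in the DB2313 libraries. The groups came close at 28.0 and 29.4 CPM but did not overlap. The mean was 1.18-fold higher (log2 fold change 0.23, SE 0.076, edgeR adjusted p = 0.0150). This call did not hold with DESeq2 (adjusted p = 0.0542), without control replicate 2 (edgeR, log2 fold change 0.20, adjusted p = 0.0853) or without DB2313 replicate 3 (edgeR, 0.18, adjusted p = 0.0732). The ratio of Tbx21 to Gata3 counts, which opposes type 1 and type 2 factors, was 0.506 ± 0.055 and 0.481 ± 0.096 (SD, n = 3), overlapped and had an exact two-sided permutation p of 0.7. The transcripts Il4 and Ifng, read-outs of these states, were at 1.96 ± 0.20 and 1.96 ± 0.24 CPM for Il4 and at 1.34 ± 0.25 and 0.842 ± 0.45 CPM for Ifng in control and DB2313 libraries, and neither passed the edgeR test (adjusted p = 0.994 and 0.190).

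Runx3 (ENSMUSG00000070691, chr4:135120652-135177990, plus strand), which sets the CD8 lineage by silencing Cd4, held 102, 99.8 and 103 CPM in the controls and 95.4, 99.9 and 90.7 CPM in the DB2313 libraries. A single DB2313 library reached the control range. The log2 fold change was -0.09 (SE 0.044, edgeR adjusted p = 0.0912), and without DB2313 replicate 2 it was -0.13 and passed (edgeR adjusted p = 0.0393). The related Runx1 (-0.32, edgeR adjusted p = 8.76e-06) and Runx2 (-0.21, edgeR adjusted p = 0.0459) were called lower, although the groups overlapped for Runx2. Zbtb7b, the factor of the CD4 lineage that opposes Runx3, went from 168 ± 11.2 to 146 ± 2.73 CPM (log2 fold change -0.20, SE 0.043, edgeR adjusted p = 0.000583). The ratio of Runx3 to Zbtb7b counts was 0.608 ± 0.036 and 0.653 ± 0.027 (SD, n = 3), overlapped through control replicate 1 and DB2313 replicate 3, and had an exact two-sided permutation p of 0.2. Leaving out one or the other of these libraries ends the overlap by construction, which adds nothing to the test.

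Because T cell markers and macrophage markers moved in opposite directions between the groups, each factor was also set against the summed T cell marker counts of its own library. Eomes was the one factor whose groups overlapped on this scale, at 3.94 ± 0.30 and 4.06 ± 0.22 counts per 1000 T cell marker counts in control and DB2313 libraries (SD, n = 3, exact two-sided permutation p = 0.8). The other 9 factors were lower in every DB2313 library than in every control library, as was the case for 79% of all tested genes. Each of the 9 had an exact two-sided permutation p of 0.1, the smallest possible, and 0.111 adjusted over the 10 factors. Zeb2 went from 25.1 ± 1.09 to 8.16 ± 0.29 counts per 1000 T cell marker counts, a log2 difference of -1.62. Id2 went from 113 ± 2.92 to 45.5 ± 0.22 (-1.31), Prdm1 from 5.00 ± 0.56 to 2.38 ± 0.13 (-1.07) and Bcl6 from 8.29 ± 0.13 to 4.20 ± 0.25 (-0.98). Smaller log2 differences were found for Runx3 (-0.69), Batf (-0.54), Id3 (-0.53), Tbx21 (-0.45) and Gata3 (-0.36).

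**Figure D3:**
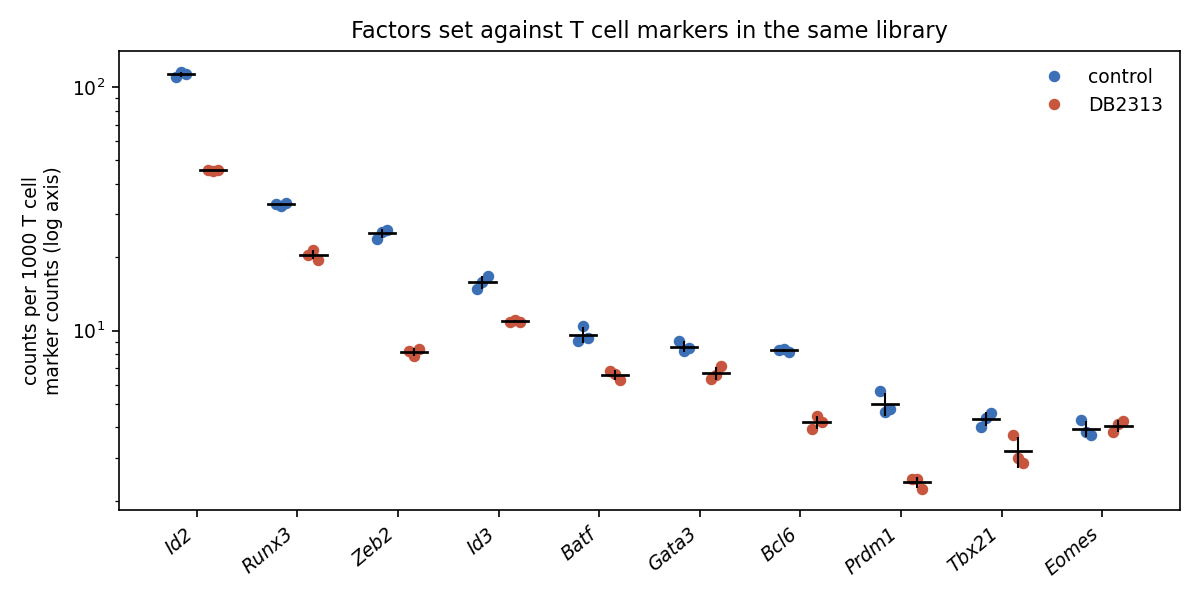
Counts of each factor per 1000 summed counts of 18 T cell markers in the same library (log axis), where points are libraries, horizontal bars group means and vertical bars the SD. The groups overlap for Eomes, and the other 9 factors are lower in all 3 DB2313 libraries.

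With all libraries scaled to the T cell markers in the edgeR fit, the median log2 fold change of all tested genes moved from 0.02 to -0.58 and 77.8% of them were called lower. The 10 factors then had a median of -0.62, with 9 called lower and none higher. Zeb2, Id2, Prdm1, Bcl6 and Runx3 lay below the shifted median of all genes, and Eomes, Gata3, Tbx21, Id3 and Batf above it. The log2 fold changes of Tbx21 (-0.44), Id3 (-0.53), Batf (-0.54) and Gata3 (-0.36) carried the opposite sign to those under TMM scaling. Eomes had a log2 fold change of 0.04 (edgeR adjusted p = 0.688).

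**Figure D4:**
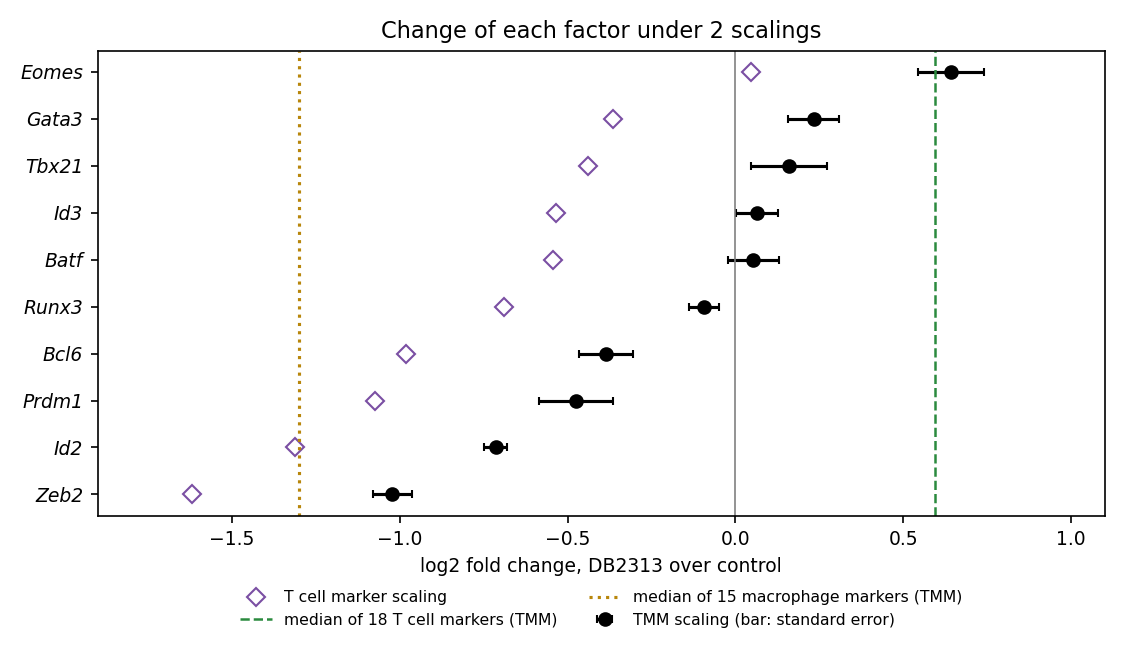
Log2 fold change of each factor (DB2313 over control) under TMM scaling, with the standard error, and under scaling to T cell markers (open diamonds). Eomes under TMM (0.64) lies above the median of the T cell markers (dashed line, 0.59), which is within its standard error, Zeb2 and Id2 lie toward the median of the macrophage markers (dotted line, -1.30), and scaling to T cell markers moves each factor lower.

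Transcription factors around the 10 showed a mixed pattern. Of 55 tested, 24 were higher, 17 were lower and 14 did not pass (median log2 fold change 0.05). The shares were 20.8% higher and 24.6% lower over all tested genes, and 22.2% and 20.5% over the 883 tested transcription factors. With libraries scaled to T cell markers none of the 55 was higher and 47 were lower, where 77.8% of all tested genes were lower. Factors of naive, memory and exhausted T cells were mostly higher under TMM scaling, with 15 of 26 higher and 4 lower, against 20 lower and none higher under T cell marker scaling. Tcf7, which keeps stem-like and naive T cells, went from 558 ± 18.5 to 820 ± 16.2 CPM (log2 fold change 0.56, SE 0.033, edgeR adjusted p = 1.25e-12). The ratio of Eomes to Tcf7 counts was 0.0217 ± 0.0012 and 0.0231 ± 0.00096 (SD, n = 3), with an exact two-sided permutation p of 0.2. These ratios overlapped through replicate 1 of both groups, so leaving out either of these libraries ends the overlap by construction. Klf2 (0.61), a quiescence and homing factor, Tox (0.58), a factor of exhausted cells, Satb1 (0.50), a chromatin organiser of T cells, and Ets1 (0.49) also rose on the log2 scale. Gata1, a factor of erythroid and mast cells, rose by 0.68 from 22.4 ± 0.38 to 36 ± 4.03 CPM. Nr4a3, an early gene of T cell receptor signalling that myeloid cells also induce, had the lowest log2 fold change of this group at -1.74, from 140 ± 2.12 to 41.7 ± 1.83 CPM (SE 0.047, edgeR adjusted p = 3.89e-19). Of the 8 Runx, Gata and Zeb relatives, 2 were higher and 3 lower, and of 6 Stat factors 2 were higher and 3 lower.

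The read-outs of effector and memory states were mostly higher. Of 20 tested, 11 were higher and 3 lower under TMM scaling (median log2 fold change 0.45), beside 20.8% higher and 24.6% lower over all tested genes. With libraries scaled to T cell markers, 1 was higher and 9 were lower (median -0.15), beside 77.8% of all tested genes lower. S1pr5, Il5 and Il10 were too low to test. Among genes of cytotoxic or effector cells, those past the edgeR threshold included Gzmb, which went from 88.1 ± 2.63 to 114 ± 2.74 CPM (log2 fold change 0.37), Prf1 from 11 ± 0.59 to 15.7 ± 1.04 CPM (0.51), Nkg7 from 41.4 ± 2.13 to 67.5 ± 5.20 CPM (0.71) and Fasl from 3.71 ± 0.54 to 6.30 ± 0.86 CPM (0.76). Gzma (0.47), Klrg1 (0.18), Cx3cr1 (0.26) and Ifng (-0.65) did not pass (edgeR adjusted p = 0.0882, 0.591, 0.476 and 0.190). Il2rb, the interleukin receptor chain induced by both T-box factors, rose from 394 ± 4.34 to 556 ± 19.2 CPM (0.50). Cxcr3, a target of T-bet, rose by 0.76 and the lectin receptor Klrd1 by 0.81 on the log2 scale. Among receptors used to describe memory, homing or follicular cells, log2 fold changes were 0.67 for Cd27, 0.55 for Il7r and 0.58 for Cxcr5, and -0.10 for Ccr7, all past the edgeR threshold.

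Ccl5, a chemokine of effector T cells and macrophages, fell from 758 ± 17.9 to 306 ± 14.3 CPM (log2 fold change -1.31, SE 0.036, edgeR adjusted p = 8.31e-19). Il2 fell from 5.80 ± 0.60 to 3.33 ± 0.78 CPM (-0.80), and Ccr7, a homing receptor of naive T cells and mature dendritic cells, fell slightly from 889 ± 9.02 to 828 ± 16.7 CPM (-0.10, SE 0.030, edgeR adjusted p = 0.00790).

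**Figure D5:**
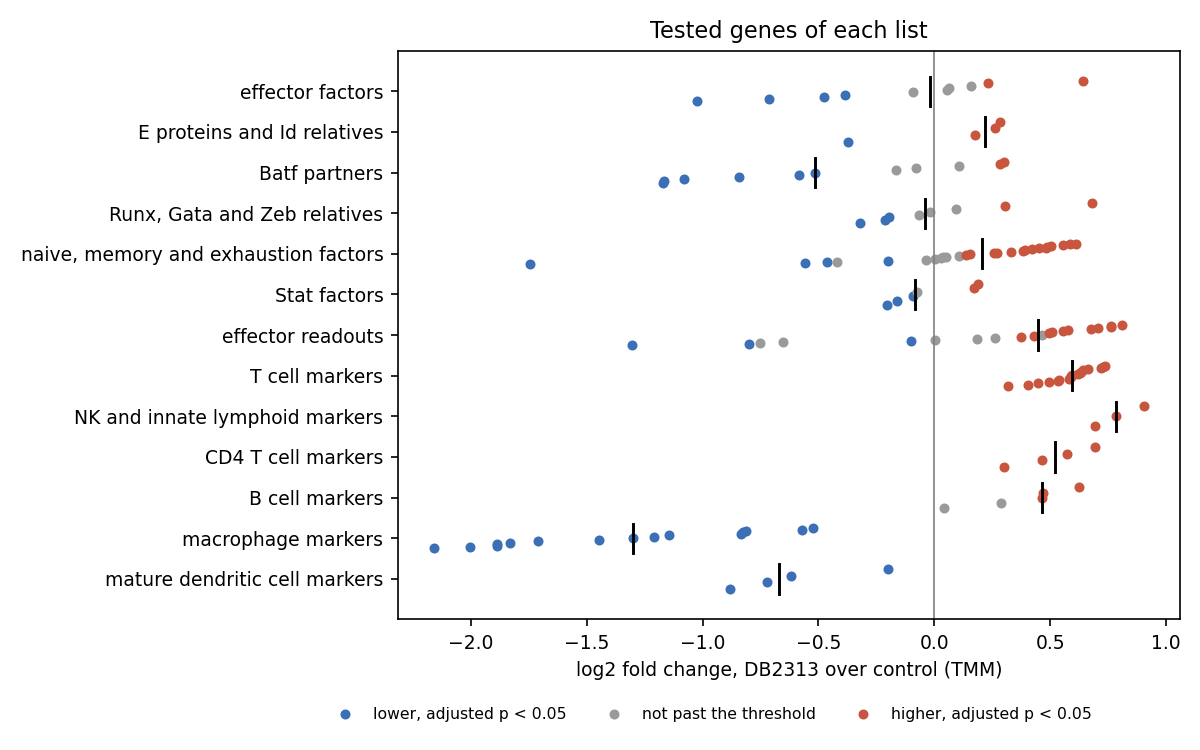
Log2 fold change (DB2313 over control, TMM scaling) of the tested genes of each list, where points are genes coloured by the edgeR call and black bars are list medians. The 10 effector factors spread on both sides of 0, the T cell markers lie between 0.32 and 0.74, and the macrophage markers between -2.16 and -0.52. With libraries scaled to the T cell markers, the medians of the E protein, naive and memory, read-out, CD4 T cell and B cell lists fall below 0.

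Markers of other cell types moved with the factors that fell and with those that rose. Over all tested genes, 20.8% were called higher and 24.6% lower under TMM scaling. The 4 markers of mature dendritic cells were all lower, and their summed share was 0.323% to 0.327% of control and 0.213% to 0.214% of DB2313 counts. Of 7 dendritic cell markers, 4 were lower and 1 higher, from 0.0177% to 0.0185% down to 0.00863% to 0.00943% of counts, and Siglech was at 0 in every library. Of 6 neutrophil markers, 5 were lower and 1 was higher, at 0.105% to 0.106% and 0.0265% to 0.0302% of counts. Mast cell and basophil markers made up 0.0863% to 0.0881% and 0.0636% to 0.0659% of counts, with 3 of 6 higher and 2 lower. CD4 T cell markers (4 of 4 higher, 0.0368% to 0.0374% and 0.0533% to 0.0552% of counts) and NK cell markers (3 of 3 tested higher, 0.000834% to 0.00102% and 0.00160% to 0.00188%) rose under TMM scaling. Of 5 B cell markers 3 rose, at 0.00379% to 0.00430% and 0.00579% to 0.00598%. Plasma cell markers made up 0.00419% to 0.00450% and 0.00279% to 0.00329% of counts. Of the 3 tested plasma cell markers, 1 was higher and 1, Sdc1, was lower. Scaled to the T cell markers, none of these CD4 T cell, NK cell and B cell markers was called higher. The part of these cell types in the changes of the 10 factors was not tested.

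Among the 154 listed genes, those whose pattern over the 6 libraries was nearest to a factor's were found by the root mean square distance of centred log2 CPM. Eomes was nearest to the T cell genes Cd28 (0.0445) and Lck (0.0583). Zeb2 was nearest to Irf8 (0.0534) and to the macrophage scavenger receptor Msr1 (0.0702), and Id2 to Cd83 (0.0521), a marker of mature dendritic cells, and C1qb (0.0561), a complement gene of macrophages. Prdm1 lay closest to Zbtb46 (0.0904) and Bhlhe40 (0.0916), and Bcl6 to Runx1 (0.0621) and Nfil3 (0.0622). Gata3 was nearest to Tcf12 (0.0532), and Runx3 to Ccr7 (0.0266) and Junb (0.0398). For the remaining factors, Id3 was nearest to Zeb1 (0.0627) and Jun (0.0650), Batf to Rora (0.0778) and Jun (0.0786), and Tbx21 to Hopx (0.0875) and Batf (0.113). These distances are taken over 6 libraries in 2 groups and hold both the difference between the groups and the scatter within them.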

How the data were processed

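RNA from 3 control and 3 DB2313 libraries of mouse primary T cells was sequenced on an Illumina instrument. The authors deposited raw read counts per gene, whole numbers that were not normalized. The submitters' processing notes name CASAVA 1.8, HISAT2 2.0.5 and featureCounts 1.5.0-p3, whereas the study's methods name LifeScope, and the genome build, annotation and strand setting are not given in the sources used here. Of 54409 genes shared with GENCODE M21, 98.3% had identical GRCm38 coordinates, including all 10 factors.

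Groups followed the sample descriptions. Genes were kept by filterByExpr, scaled by TMM and fitted with edgeR 4.0.16 (glmQLFit and glmQLFTest, group as the only term), with Benjamini-Hochberg adjustment over 14883 genes. The standard error is the log2 fold change divided by the square root of F. CPM were computed from the deposited counts with TMM library sizes. Ratios used counts plus 0.5 and two-sided exact permutation tests in Python with numpy 2.4.6. Alternatives were DESeq2 1.42.0, other scalings, filters, a replicate block and leaving out each library. The fit was tested on simulated data. Counts from 187 to 6107 for a factor carry a counting error of 7.31% to 1.28%.

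The members, the gene lists and the motifs were chosen with earlier results of these data known. The genes named were the 10 factors, both genes of each pair, read-outs whose group mean reached 5 CPM, the 6 highest and 6 lowest called genes above that level in the other factor lists, the nearest 2 genes of each factor, overlapping genes and markers at 0. Tcf3, Tcf12, Tcf4, Id1, Jund, Bach2, Runx1, Runx2, Il4, Ifng, Gzma, Klrg1, Cx3cr1, Cd4, Foxp3, Cd8a, Sdc1, Jchain, Mzb1 and Tnfrsf17 were named after their values were seen. Some genes that this rule names are not reported here.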

Additional observations from a re-analysis of the deposited data

How the results depend on the processing

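The 10 factors gave 2 higher and 4 lower calls with RLE size factors, without the filter on low counts, with at least 10 counts in every library, among protein-coding genes and with the replicate block. Replicate numbers share only a number: same-numbered libraries deviated with correlations of 0.0025, -0.011 and -0.0051, and under the replicate block Zeb2 had -1.02. DESeq2 called 1 factor higher, Eomes. Library size scaling gave Runx3 0.0011 in place of -0.09, and under it and upper quartile scaling 0 factors passed a log2 fold change of 1 (Zeb2 at -0.93 and -0.96). Under T cell marker scaling 0 factors were higher, 9 lower and 3 past a fold change of 1 (Zeb2, Id2 and Prdm1). The signs of Tbx21 (-0.44), Id3 (-0.53), Batf (-0.54) and Gata3 (-0.36) reversed, related factors had 0 higher and 47 lower calls, and read-outs 1 higher and 9 lower. Leaving out 1 library at a time gave 1 to 2 factors higher (1 without control replicate 2 or DB2313 replicate 3), 4 to 5 lower (5 without DB2313 replicate 2) and 0 to 1 past a fold change of 1 (0 without control replicate 3 or DB2313 replicate 2). Of the 8 pair ratios, 3 did not overlap with all libraries and 3 to 6 with a library left out (6 without control replicate 1, 5 without DB2313 replicate 1), given as values with no test. Taken singly, 53.1% of all tested genes did not overlap with all libraries, and no such share was computed for other gene pairs. With fewer libraries in a group, values separate more readily. Other member results kept direction and side of the threshold in these alternatives, except that Id3 passed under library size scaling, Eomes lost its call under T cell marker scaling, Runx3, Tbx21, Id3 and Batf were called lower there and Gata3 turned from a higher to a lower call, Runx3 also passed without DB2313 replicate 2, and Gata3 lost its call with DESeq2 and without the libraries named above. Within 3 libraries a group, exact permutation tests cannot go below 0.1.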
